A study of Mus musculus with 56 samples.

Results

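Arntl, Clock, Npas2, Cry1 and Nfil3, 5 of the 20018 genes that could be named on the array, form the activating arm of the circadian clock together with genes whose mRNA peaks with that arm and opposite to Dbp. They were chosen by name, each through the RefSeq accession of its probe. Each had 1 probe and 1 spot among the 26413 of 55681 probes that could be named, and unnamed probes were not searched. The probes were A_55_P2408588 for Arntl (also written Bmal1), A_52_P334670 for Clock, A_52_P534749 for Npas2, A_52_P420500 for Cry1 and A_55_P2035320 for Nfil3. The animals were adult male MutaMouse, a transgenic strain with a lacZ reporter for scoring mutations, about 14 weeks old, and RNA was taken from their forestomach, liver and lung. Controls (D0) were gavaged with the olive oil vehicle each day for 28 days, and the others with the polycyclic aromatic hydrocarbon chrysene, dissolved in that vehicle, at a dose of 17.5 (D1), 50 (D2) or 150 mg/kg-bw/day (D3). Tissues were collected 72 h after the final gavage. All mice, controls included, carried the transgene, received olive oil and were held under 12 h of light and 12 h of dark. The 56 arrays comprised 5, 5, 3 and 5 lungs and 5, 5, 4 and 5 livers and forestomachs at D0, D1, D2 and D3, and lung RNA of mouse 11 was not analysed here. The time of day at which each mouse was killed is not given in the sources used here.

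The protein products of Arntl and Clock pair and bind E-boxes, switching on the Per and Cry repressors, the nuclear receptors Nr1d1 and Nr1d2, and Dbp. NPAS2 can take the place of CLOCK in this pair, and CRY1, with the PER proteins, inhibits it. NR1D1 and NR1D2 in turn repress Arntl, Clock, Npas2, Cry1 and Nfil3 through ROR elements, and NFIL3 represses at D-boxes, the sequences that DBP, TEF and HLF activate. In liver and other peripheral tissues the mRNA of Arntl therefore rises and falls over the day in opposition to that of Dbp.

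The comparison of members between mice turned mainly on Arntl and Nfil3, whose promoters were searched for the ROR element core (AGGTCA), the E-box (CACGTG) and D-boxes (TTATGTAA or TTACGTAA). Promoters came from RefSeq on GRCm38.p6 and ran from 250 bases before to 50 after a start site. All 5 members were matched, with 8 promoters, some of which overlapped (Arntl had 2 and Clock 3). Both strands were read, and no motif found in a member overlapped another. The ROR core was present in 3 of the 8 promoters and in 16.3% of all 32851 promoters of that length. The E-box was present in 1 and in 7.15%, and the D-box forms in none of the members' promoters and in 0.938% and 0.119%. The promoters of Arntl (second start site) and Nfil3 are shown because these genes varied together between mice, and that of Cry1 because it held the E-box. Capitals mark the motif.
Arntl, chr7:113207261-113207560, plus strand: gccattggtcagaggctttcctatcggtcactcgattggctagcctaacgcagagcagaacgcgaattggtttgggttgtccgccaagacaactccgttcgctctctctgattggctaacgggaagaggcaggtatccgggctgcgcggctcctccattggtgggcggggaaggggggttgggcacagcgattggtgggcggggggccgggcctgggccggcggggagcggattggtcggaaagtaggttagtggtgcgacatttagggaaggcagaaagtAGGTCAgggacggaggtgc
Nfil3, chr13:52980990-52981289, minus strand: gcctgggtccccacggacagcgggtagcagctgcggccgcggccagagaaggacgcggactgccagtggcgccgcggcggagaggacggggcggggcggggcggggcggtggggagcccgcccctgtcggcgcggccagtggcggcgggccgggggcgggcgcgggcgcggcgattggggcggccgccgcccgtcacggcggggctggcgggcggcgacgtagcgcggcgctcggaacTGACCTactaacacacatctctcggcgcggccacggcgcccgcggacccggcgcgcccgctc
Cry1, chr10:85185005-85185304, minus strand: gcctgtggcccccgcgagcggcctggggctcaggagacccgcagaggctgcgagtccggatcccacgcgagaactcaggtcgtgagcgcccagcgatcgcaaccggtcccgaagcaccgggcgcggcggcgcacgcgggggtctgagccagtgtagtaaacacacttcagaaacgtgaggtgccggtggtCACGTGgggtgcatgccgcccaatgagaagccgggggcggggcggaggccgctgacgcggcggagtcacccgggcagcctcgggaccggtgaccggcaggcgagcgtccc
The ROR core began 32 bases after the start site in Arntl and 12 before it in Nfil3, where it was read on the other strand as TGACCT. The E-box of Cry1 began 60 bases before its start. A Clock promoter (chr5:76303453-76303752) also held TGACCT, and the promoter of Npas2 (chr1:39194022-39194321) held none of these letters. Such a match describes the letters in the window and is no measure of binding.

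Each array compared the sample in Cy5 with the same reference RNA, pooled from 11 mouse cell lines, in Cy3. Values are the authors' log2 ratios of Cy5 over Cy3, so that 0 means the level of the reference and 1 a 2-fold higher level. Dyes were not swapped, and a probe's dye bias cancels only between arrays. Cy5 was well above background at 47.6% to 55.2% of probes in lung, 33.2% to 45.2% in liver and 18.1% to 50.2% in forestomach. The tissues carried their own markers: the hepatocyte list averaged 6.90 to 7.44 in liver, the alveolar type 2 list 5.79 to 6.27 in lung and the keratinocyte list 3.85 to 5.99 in forestomach. The lungs of mice 17 and 19 at D3 stood apart, with skeletal muscle markers up to 6.26 and keratinocyte markers up to 4.61 above the D0 mean. Adipocyte markers ran from -0.91 to 2.49 around the D0 mean in lung, highest in mouse 17, and from -1.75 to 2.62 in forestomach, and B cell markers reached 1.35 above it in the lung of mouse 19. Forestomach differed between mice in glandular stomach markers, from -3.68 to 2.81 around the D0 mean, and in hepatocyte markers, from -1.54 to 1.81 with 0 to 8 of the 8 genes well above background. The part of these lists in the members' values was not tested. In bulk tissue, fewer cells of a type and less RNA per cell cannot be told apart.

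Arntl, Clock and Nfil3 were measured well above background in Cy5 on nearly all arrays. Arntl passed on 18 of 18 lung, 19 of 19 liver and 18 of 19 forestomach arrays, Clock on all 56 and Nfil3 on 18, 19 and 18. Npas2 and Cry1 were dim. Npas2 passed on 5 lung, 0 liver and 5 forestomach arrays and Cry1 on 0, 3 and 0. Testing in a tissue required that at least 3 of its arrays passed. Npas2 was therefore left out of the dose fits in liver, and Cry1 out of those in lung and forestomach. Contrasts between tissues needed signal in either of the pair, and the exact tests and relations between mice took every member in every tissue, so those of Npas2 and Cry1 include arrays on which the probe did not stand well above background. Background was not subtracted from the signals, which pulls the ratios of dim probes toward 0.

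Arntl, the partner of CLOCK, had lower means at D2 and D3 than at D0 in lung and liver, and no dose reached the limits of the test. In lung, D0 mice 1 to 5 had log2 ratios of 0.23, 0.79, 0.20, -0.31 and 0.05. The D1 mice 6 to 10 had 0.31, 0.87, 0.18, -0.66 and 0.04. At D2, mice 12, 13 and 15 had -0.14, -0.56 and -1.81, and at D3, mice 16 to 20 had -0.86, 0.51, -0.74, 0.02 and 0.15. Mouse 15 was the lowest of the 18 and mouse 7 the highest, and 2 of 3 D2 lungs and 2 of 5 D3 lungs lay below every control while the groups as a whole overlapped. Means ± SD were 0.19 ± 0.40 (n = 5), 0.15 ± 0.55 (n = 5), -0.83 ± 0.87 (n = 3) and -0.18 ± 0.59 (n = 5).

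The same order was measured for Arntl in liver. Controls had 1.48, 1.32, 0.49, 0.82 and 1.34, and D1 livers 1.39, 1.57, 0.85, -0.10 and 0.87. At D2, mice 11, 12, 13 and 15 had 0.71, 0.67, -0.71 and -1.24. At D3 the values were -0.05, 0.84, -0.07, -0.10 and 1.18. Mouse 15 was again lowest and mouse 7 highest, and all dose groups overlapped the controls. Group means were 1.09 ± 0.42, 0.92 ± 0.65, -0.14 ± 0.99 and 0.36 ± 0.61 (SD, n = 5, 5, 4 and 5).

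Forestomach had a narrower range. Arntl ran there from -0.23 (mouse 4, D0) to 0.60 (mouse 7, D1), with group means of 0.23 ± 0.33, 0.43 ± 0.16, 0.19 ± 0.35 and 0.11 ± 0.26 (SD, n = 5, 5, 4 and 5). The SD of Arntl around its dose group means was 0.58 in lung and 0.67 in liver, above that of 97.7% and 99.2% of the probes tested, whereas in forestomach it was 0.28, above that of 50.0%. The median probe had 0.159, 0.156 and 0.280. Arntl thus varied between mice of a dose group more than nearly all probes did in lung and liver, and about as much as the median probe in forestomach.

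**Figure D1:**
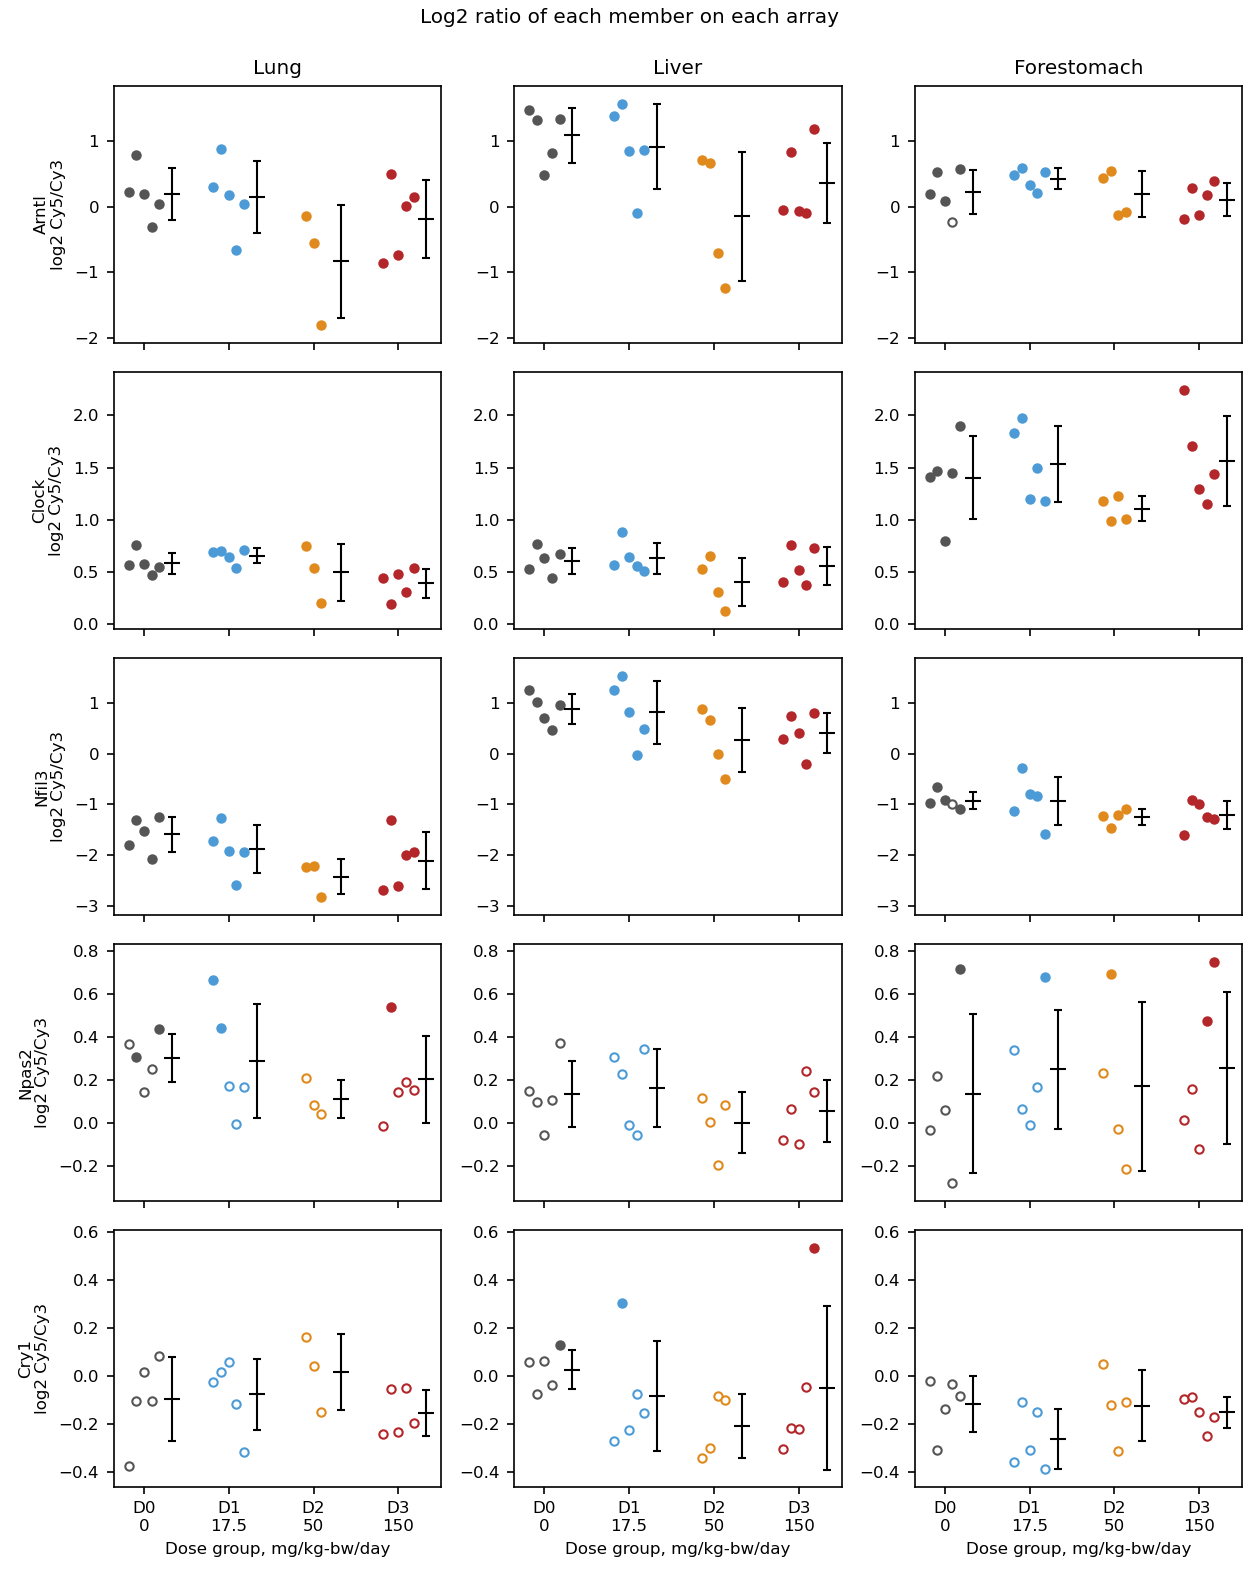
Log2 ratio of Cy5 over Cy3 (vertical axis) of the 5 members on each array by dose group in mg/kg-bw/day (horizontal axis), with 1 column per tissue, filled circles where Cy5 was well above background, open circles where it was not, and bars for mean ± SD. The D2 mean of Arntl is lowest in lung (-0.83) and liver (-0.14), Nfil3 is above 0 in most livers and below 0 in every lung and forestomach, and most Npas2 and Cry1 values are open circles.

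Nfil3, the D-box repressor, had lower means at D2 and D3 than at D0 in all tissues. Lung controls had -1.81, -1.30, -1.53, -2.07 and -1.24, and D1 lungs -1.73, -1.27, -1.92, -2.58 and -1.93. At D2 the 3 lungs had -2.24, -2.22 and -2.83, and at D3 the values were -2.70, -1.31, -2.62, -1.99 and -1.93. All 3 D2 lungs lay below all 5 controls, as they did for 2.89% of the probes tested, and the D3 lungs overlapped them. In liver, controls had 1.25, 1.01, 0.71, 0.47 and 0.96 and D1 mice 1.25, 1.53, 0.82, -0.03 and 0.49. The D2 livers had 0.88, 0.67, -0.01 and -0.50 and the D3 livers 0.28, 0.74, 0.41, -0.20 and 0.79. Mouse 15 had the lowest Nfil3 in lung and in liver, and liver groups overlapped. In forestomach Nfil3 lay between -1.61 (mouse 16, D3) and -0.29 (mouse 7, D1), with a D0 mean of -0.93 and group ranges that overlapped. The SD around dose group means was 0.46, 0.50 and 0.31 in lung, liver and forestomach, above that of 95.9%, 98.0% and 56.8% of probes.

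Clock, which encodes the DNA-binding partner of ARNTL, varied less than Arntl and Nfil3 in lung and liver, though not in forestomach. Its lung values were 0.56, 0.75, 0.57, 0.47 and 0.55 at D0 and 0.70, 0.70, 0.64, 0.53 and 0.71 at D1. They were 0.75, 0.54 and 0.20 at D2 and 0.44, 0.19, 0.48, 0.31 and 0.53 at D3. Of the D3 lungs, 3 of 5 lay below every control, mouse 17 the lowest, and the groups overlapped. Livers ran from 0.12 (mouse 15) to 0.88 (mouse 7) and forestomachs from 0.80 (mouse 3) to 2.25 (mouse 16). The SD of Clock around dose group means was 0.14 in lung and 0.17 in liver, above that of 39.5% and 59.7% of probes, and 0.36 in forestomach, above that of 67.5%.

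Npas2, the paralogue of Clock, ran from -0.01 to 0.67 in lung, -0.19 to 0.37 in liver and -0.28 to 0.75 in forestomach, where its 5 highest arrays were those well above background. Cry1, the repressor of the CLOCK pair, ran from -0.38 to 0.16, -0.34 to 0.54 and -0.39 to 0.05. The 4 D2 livers (-0.34, -0.30, -0.09 and -0.10) were all below the 5 controls (0.06, -0.08, 0.06, -0.04 and 0.13), as for 0.547% of probes in that comparison, but none of these 4 and only 1 of the 5 controls had Cry1 well above background.

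Whether chrysene changed the members was tested in each tissue with limma, each dose against D0, with Benjamini-Hochberg adjustment over all probes tested there. A call needed an adjusted p of at most 0.05 and a 1.5-fold change. No member was called at any dose. In lung 0 of 4 members tested were called at D1, D2 and D3, against 0%, 0% and 0.127% of all 31447 probes. Liver had 0 of 4 at each dose, where 0% of the 24689 probes were called at D1, D2 and D3, and forestomach had 0 of 4 with 0%, 0% and 0.00728% of 27489 probes. At D1 and D3 no member had an unadjusted p of 0.05 or less either. The study's Fs statistic with permuted residuals also called 0 members and 0 of the other clock genes.

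At the middle dose Arntl and Nfil3 had the lowest fitted values among the members tested in lung and liver. Arntl in liver had a log2 change of -1.23 at D2 (SE 0.41, 95% interval -2.08 to -0.38, unadjusted p 0.00682 and adjusted p 0.998 in limma). In lung it changed by -1.03 (SE 0.38, adjusted p 0.726). Nfil3 changed by -0.84 in lung (SE 0.30, adjusted p 0.717) and by -0.62 in liver (SE 0.30, adjusted p 0.998). Arntl and Nfil3 in lung were the 2 of 4 members with an unadjusted p under the limit of 0.05 at D2 in that tissue, where 3.32% of probes had such a p with a lower value, and Arntl was the 1 of 4 in liver, where 1.79% had. Mouse 15 carried much of these values. Without it the D2 change of Arntl was -0.54 in lung and -0.87 in liver, and that of Nfil3 was -0.64 and -0.37. All comparisons with D0 in a tissue share the same control arrays and are not independent of each other.

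At the highest dose lung values were -0.38 (SE 0.33) for Arntl, -0.52 (0.26) for Nfil3, -0.19 (0.09) for Clock and -0.10 (0.12) for Npas2, with adjusted p of 0.616, 0.339, 0.316 and 0.716 in limma. All 4 were below 0, as were 57.5% of all probes tested in lung, and under median centring of the arrays Clock stood at 0.022 while the median of all probes stood at 0.12. The lungs of mice 17 and 19, with muscle and keratinocyte markers, are 2 of the 5 at D3. Without both, the values were -0.67 for Arntl, -0.82 for Nfil3, -0.099 for Clock and -0.21 for Npas2 (adjusted p 0.361 to 0.779). Single mice also moved them: Arntl was -0.55 without mouse 17 and -0.21 without mouse 16, and Npas2 -0.18 and -0.046. Liver values were -0.73 (SE 0.38) for Arntl, -0.47 (0.28) for Nfil3, -0.05 (0.11) for Clock and -0.08 (0.13) for Cry1, all below 0 as were 53% of probes, and with normexp Clock stood at 0.0048. Without mouse 19 Clock was -0.0031 and without mouse 17 -0.10, and Cry1 was -0.22 without mouse 20 and -0.014 without mouse 16. Forestomach values were -0.12 (SE 0.17) for Arntl, -0.28 (0.19) for Nfil3, 0.16 (0.22) for Clock and 0.12 (0.21) for Npas2, all with an interval that included 0. Without mouse 16 Nfil3 there was -0.18 and Clock -0.0074, and without mouse 20 Npas2 was -0.0055, and Arntl ran from -0.24 without mouse 4 to -0.035 without mouse 5. Median centring shifted the median of all probes by 0.19 in forestomach, and Arntl stood at 0.055 and Nfil3 at 0.19 there, which is -0.13 and 0.0027 relative to that shift. The median change of the members tested was -0.28, -0.27 and -0.0019 in lung, liver and forestomach, beside -0.03, -0.01 and -0.0015 for all probes.

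A linear trend over the dose steps was also fitted. The fitted change from D0 to D3 was -0.94 for Arntl (SE 0.39, adjusted p 0.882) and -0.58 for Nfil3 in liver (SE 0.27, adjusted p 0.914). It was -0.58 for Nfil3 (SE 0.26, adjusted p 0.254), -0.56 for Arntl (SE 0.35, adjusted p 0.429) and -0.22 for Clock in lung (SE 0.09, adjusted p 0.226). Without mice 17 and 19 the lung trends were -0.92, -0.91 and -0.13 (adjusted p 0.165, 0.333 and 0.642 in limma). Unadjusted p was at most 0.05 for 2 of 4 members in lung, where 11% of probes had such a p with a falling trend, and for 2 of 4 in liver, where 2.78% had. No member was called, as against 0.169%, 0% and 0.04% of probes in lung, liver and forestomach. An exact two-sided permutation test of each member by tissue and dose, 60 tests with all doses pooled included, gave a smallest p of 0.00794, for Cry1 in liver at D2, which is the smallest that 5 against 4 mice allow, and a Benjamini-Hochberg adjusted p of 0.397. A test at that smallest p passes adjustment over 60 tests only where several others are about as small.

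**Figure D2:**
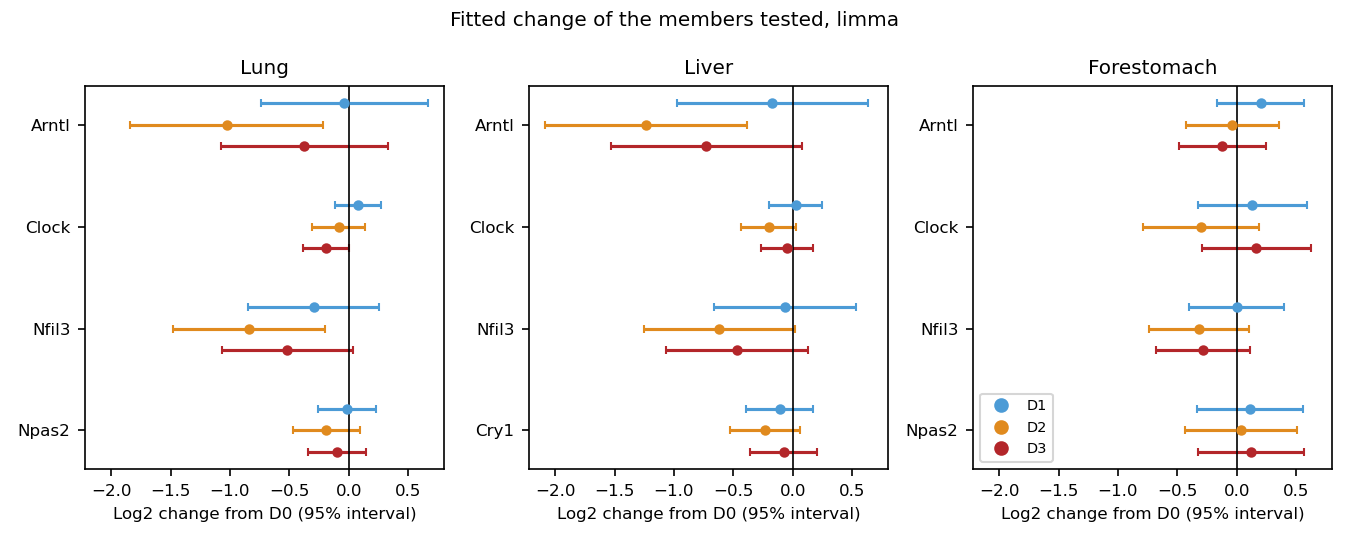
Fitted log2 change from D0 (horizontal axis) with its 95% interval from limma for the members tested in each tissue, with D1 in blue, D2 in orange and D3 in red. The intervals of Arntl at D2 lie below 0 in lung (-1.84 to -0.21) and liver (-2.08 to -0.38), and no change passed adjustment over all probes.

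The change at D3 was then compared between tissues in 1 limma fit of all 56 arrays. No member was called, and none had an unadjusted p of 0.05 or less. The differences ran from -0.61 (Arntl, liver minus forestomach) to 0.35 (Arntl, lung minus liver, which was 0.19 without mouse 19 and 0.50 without mouse 3), the smallest adjusted p was 0.532, and 0%, 0.711% and 0.0811% of probes were called for lung minus liver, lung minus forestomach and liver minus forestomach. With 3 to 5 mice a group the intervals were wide, from -1.54 to 1.29 over the members.

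Levels at D0 differed between tissues for Arntl, Clock and Nfil3. Nfil3 was the member that differed most. Its D0 mean was 0.88 in liver, -0.93 in forestomach and -1.59 in lung, and lung minus liver was -2.47 (SE 0.26, adjusted p 1.16e-11 in limma). All 18 mice with both arrays had the lower value in lung. Counts of mice here and in the next paragraph take in all dose groups, whereas the differences and their p compare D0 means. Liver exceeded forestomach by 1.81 (SE 0.26, adjusted p 5.43e-08), in 19 of 19 mice, and lung minus forestomach was -0.66 (SE 0.26, adjusted p 0.0263), below 0 in 18 of 18 mice.

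Clock was highest in forestomach, with a D0 mean of 1.40 against 0.61 in liver and 0.58 in lung. The differences were -0.82 for lung minus forestomach (SE 0.15, adjusted p 9.63e-06) and -0.80 for liver minus forestomach (SE 0.15, adjusted p 1.42e-05), in 18 of 18 and 19 of 19 mice. Lung and liver were not distinguished (-0.03, SE 0.15, adjusted p 0.893). Arntl was highest in liver, 1.09 against 0.23 in forestomach and 0.19 in lung, with differences of -0.90 for lung minus liver (SE 0.33, adjusted p 0.0143) and 0.86 for liver minus forestomach (SE 0.33, adjusted p 0.0211). Lung exceeded liver in 2 of 18 mice and liver exceeded forestomach in 15 of 19. Lung and forestomach did not differ beyond their spread for Arntl (-0.04, SE 0.33, adjusted p 0.924). Npas2 and Cry1, with differences between -0.12 and 0.17, were not called.

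Counted over the members, 2 of 5 were called for lung minus liver, 2 of 4 for lung minus forestomach and 3 of 5 for liver minus forestomach, while 46%, 37.6% and 41% of all probes tested were called. Some of these calls rested on single mice or on the scaling. Without mouse 1 the adjusted p was 0.0566 for Arntl in lung minus liver, 0.0842 in liver minus forestomach and 0.0737 for Nfil3 in lung minus forestomach. The Arntl call in lung minus liver was also lost without mouse 5 (0.0586) and in liver minus forestomach without mouse 4 (0.0556), and that of Nfil3 in lung minus forestomach without mouse 2, 3 or 4 (0.0534, 0.0528 and 0.0990). With loess of the scanner signals computed here, Arntl was -0.71 in lung minus liver and 0.71 in liver minus forestomach, and Nfil3 was -0.44 in lung minus forestomach, none past the limit. Centring each array on its median in place of LOWESS shifted the median of all probes to 0.64, 0.98 and 0.18 in the contrasts of lung minus liver, lung minus forestomach and liver minus forestomach, from 0.03, 0.00 and -0.04. The values then were, for lung minus liver, -1.34 for Nfil3 (adjusted p 0.0524 in limma), 1.32 for Clock (0.0111) and 0.46 for Arntl (0.496). Nfil3 and Arntl thus lost the call there and Clock was called. For lung minus forestomach the values were 0.99 for Clock (adjusted p 0.046 in limma), 1.63 for Nfil3 (0.0156) and 1.53 for Arntl (0.0174). These were all called as higher in lung, whereas the main fit called Clock and Nfil3 as lower. Relative to the shifts the values were -1.99, 0.68 and -0.18, and 0.01, 0.65 and 0.55. Nfil3 and Arntl thus kept their direction in lung minus liver, while in lung minus forestomach Clock stood near 0 and Nfil3 turned. For liver minus forestomach the values were -0.33 for Clock (adjusted p 0.619 in limma), 1.07 for Arntl (adjusted p 0.163) and 2.98 for Nfil3 (adjusted p 0.000151). Relative to the shift these were -0.51, 0.88 and 2.80, so that Clock and Arntl kept their direction there but lost the call.

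To ask whether the members rose and fell together from mouse to mouse, each value was taken as its deviation from the mean of its dose group, which leaves dose out. Pearson's r of these deviations was tested by permutation of mice within dose groups and adjusted over 45 relations, 15 in each tissue, made of the 10 pairs of members and each member with Dbp. Of these, 14 passed an adjusted p of 0.05, 7 of them pairs of members. To set these pairs beside all probes, the share of probes with an r to Arntl at least that of the other member was counted. It was 0.00318% for Nfil3 and 1.02% for Npas2 in lung, 0.0162% for Nfil3 and 0.478% for Clock in liver, and 0.731% for Npas2 in forestomach. The share with an r to Nfil3 at least that of the other member was 0.2% for Npas2 in lung and 0.49% for Clock in liver. Arntl and Nfil3 rose and fell together in lung (r = 0.883, rho = 0.827, adjusted permutation p 0.000375, 18 mice) and in liver (r = 0.916, rho = 0.900, adjusted permutation p 0.000338, 19 mice), but in forestomach r was 0.0107 (0.982 under median centring, and 0.596 with the slide removed, adjusted permutation p 0.0627). Mouse 15 had deviations of -0.97 for Arntl and -0.40 for Nfil3 in lung and of -1.10 and -0.76 in liver. Mouse 9 (D1) was as low, with -0.81 and -0.69 in lung and -1.02 and -0.84 in liver. Mouse 7 of the same dose group was among the highest, with 0.72 and 0.62 in lung and 0.66 and 0.72 in liver. Without the 2 mice farthest from the median of Arntl, r was 0.870 in lung and 0.868 in liver. Over all mice, with the slide removed along with dose, it was 0.804 and 0.830.

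Dbp, the D-box activator, ran opposite to both. Its log2 ratio was lowest in the lung of mouse 2 (-1.95) and highest in that of mouse 15 (2.44), and in liver lowest in mouse 6 (-2.28) and highest in mouse 15 (2.13). Arntl and Dbp had r of -0.931 in lung (rho = -0.940, adjusted permutation p 0.0003), -0.938 in liver (rho = -0.930, adjusted permutation p 0.00036) and -0.751 in forestomach (rho = -0.761, adjusted permutation p 0.00565). Without the 2 mice farthest from the median these were -0.926, -0.937 and -0.766, and with the slide removed -0.883, -0.876 and -0.603. Under median centring the r was -0.801 in lung and -0.636 in liver, but in forestomach it turned to 0.909, and with loess computed here it was -0.541 there (adjusted permutation p 0.0805). Nfil3 and Dbp had r of -0.915 in lung (rho = -0.874, adjusted permutation p 0.0003) and -0.906 in liver (rho = -0.939, adjusted permutation p 0.0003) but -0.193 in forestomach. Under median centring the liver relation was -0.556 (adjusted permutation p 0.0545) and that in forestomach turned to 0.880 (adjusted permutation p 0.00113). An r with Dbp at least as negative as that of the weakest member past the limit was found for 0.611% of probes in lung, 0.968% in liver and 0.0291% in forestomach.

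**Figure D3:**
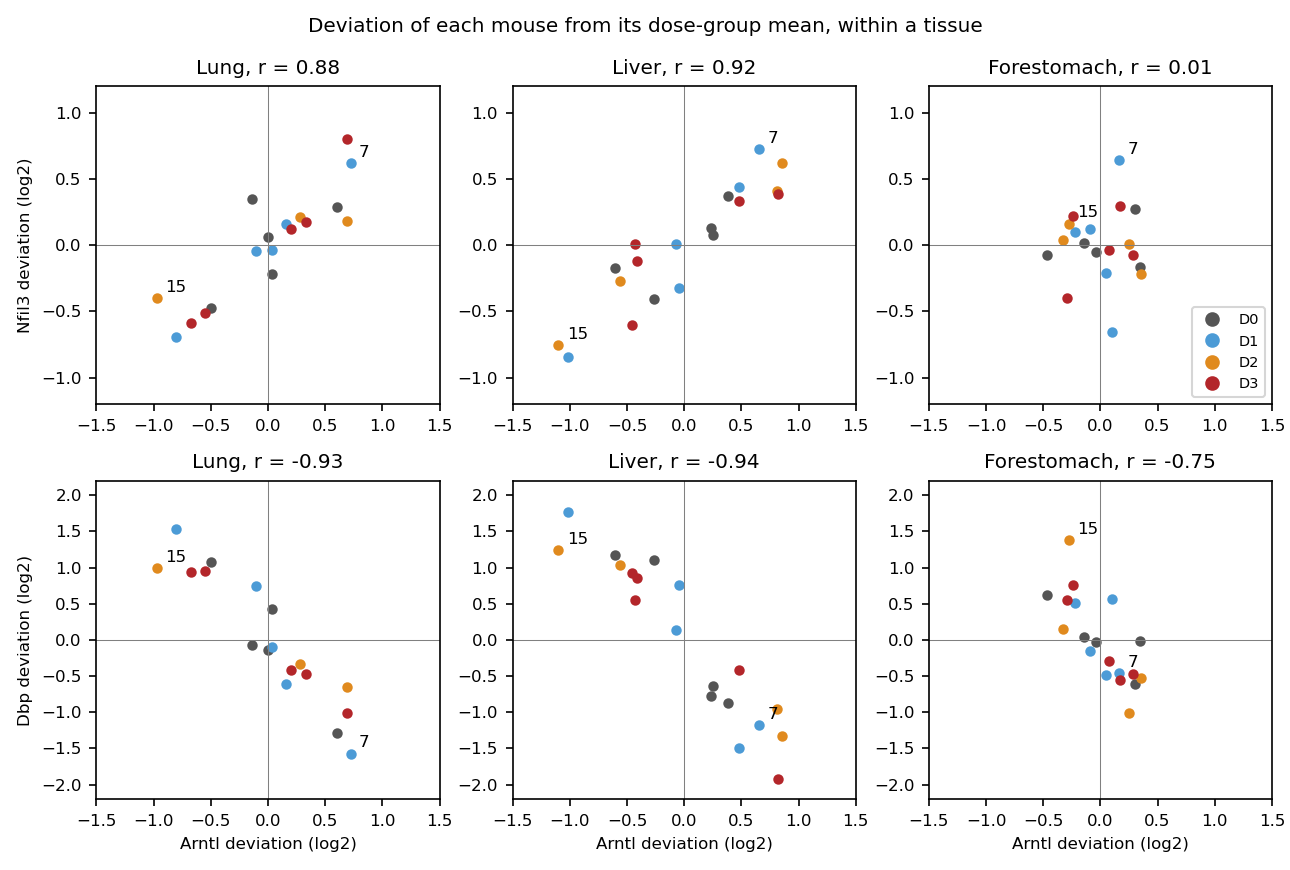
Deviation of each mouse from its dose group mean, in log2 units, for Nfil3 (upper row) and Dbp (lower row) against Arntl in the same tissue, colored by dose group, with mice 7 and 15 labelled. Points rise for Nfil3 and fall for Dbp in lung (r = 0.88 and -0.93) and liver (r = 0.92 and -0.94), while in forestomach only Dbp falls (r = -0.75).

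Clock took part in liver. There it rose and fell with Arntl (r = 0.765, rho = 0.711, adjusted permutation p 0.014) and Nfil3 (r = 0.770, rho = 0.774, adjusted permutation p 0.00565) and opposite to Dbp (r = -0.706, rho = -0.670, adjusted permutation p 0.0151). With the slide removed the first pair of values was 0.660 and 0.662, both still past the limit, and that with Dbp was -0.561 (adjusted permutation p 0.114). Under median centring the first pair was 0.866 and 0.881, and that with Dbp fell to -0.251 and missed the limit (adjusted permutation p 0.441). In lung Clock had r of 0.493 with Arntl and -0.383 with Dbp, neither past the limit, while in forestomach it had 0.0884 and -0.116, which median centring turned to 0.963 and 0.915. The lung of mouse 17, which carried muscle and keratinocyte signal, had a low Clock (a deviation of -0.20) and a high Arntl (0.69). Without mice 17 and 19, a choice made after the data were seen, r of Clock and Arntl in lung was 0.871, and that of Arntl with Nfil3 and with Dbp was 0.870 and -0.920. Clock had r of -0.480 with the muscle markers in lung (adjusted permutation p 0.176), and their part in its values was not tested.

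Npas2 had 4 relations past the limit: with Arntl (r = 0.611, rho = 0.699, adjusted permutation p 0.0303), Nfil3 (r = 0.718, rho = 0.769, adjusted permutation p 0.0151) and Dbp (r = -0.655, rho = -0.709, adjusted permutation p 0.0392) in lung, and with Arntl in forestomach (r = 0.80, rho = 0.812, adjusted permutation p 0.00334). With the slide removed they were 0.304, 0.542, -0.342 and 0.513, none past the limit. In forestomach the r of Npas2 was -0.465 with Nfil3 and -0.462 with Dbp, neither past the limit, and median centring turned these to 0.564 and 0.519. The lung relations also missed it without mouse 9, 16 or 17 (adjusted permutation p 0.0505 to 0.112) and without both mice 17 and 19 (0.109 to 0.117), and that with Arntl missed it under median centring (0.0508). Npas2 was dim, and in forestomach its deviations rose with the share of probes well above background on the array (r = 0.914, rho = 0.825, adjusted permutation p 0.00025 over 25 relations with array signal and marker lists, and r = 0.883 without the 2 farthest mice). Arntl did so too in forestomach (r = 0.801, rho = 0.782, adjusted permutation p 0.00275, and r = 0.802 without the 2 farthest), but not past the limit in lung (0.277) or liver (0.380). The part of array signal in the forestomach relations was not tested. Cry1 had no relation past the limit in any tissue by r of the dose deviations, the farthest from 0 being -0.566 with Dbp and 0.549 with Nfil3 in lung (adjusted permutation p 0.0802 and 0.063). With the slide removed 3 lung relations of Cry1 passed, with Dbp (-0.776, adjusted permutation p 0.00572), Nfil3 (0.71, adjusted permutation p 0.014) and Arntl (0.623, adjusted permutation p 0.0328). That with Nfil3 also passed by rho (adjusted permutation p 0.0438), with loess computed here (0.0435) and without the 2 farthest mice (0.0205). Cry1 was well above background on 0 of the 18 lung arrays.

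Arrays of several tissues came from the same mouse, which allowed a test of whether a mouse with a high level in 1 tissue also had it in another. Of 15 relations, 5 members by 3 pairs of tissues, 5 passed an adjusted permutation p of 0.05 by r and none by rho, and 3 of the 5 were those of Arntl. Arntl had r of 0.773 between lung and liver (rho = 0.707, adjusted permutation p 0.0162, 18 mice), 0.712 between lung and forestomach (rho = 0.643, adjusted permutation p 0.0162, 18 mice) and 0.779 between liver and forestomach (rho = 0.746, adjusted permutation p 0.013, 19 mice), and by rho its adjusted permutation p was 0.051 for each. Under median centring these r were 0.487, 0.309 and 0.520, none past the limit (adjusted permutation p 0.393, 0.491 and 0.393). Over all probes the median r of these pairs of tissues was 0.09, 0.01 and 0.05, and Arntl lay above 98.9%, 99.3% and 99.7% of probes. Mouse 9 had deviations of -0.81, -1.02 and -0.22 in lung, liver and forestomach and mouse 15 of -0.97, -1.10 and -0.27. On the high side mouse 12 had 0.69, 0.81 and 0.35 and mouse 20 had 0.33, 0.82 and 0.29. Of the 18 mice with all 3 tissues, 11 had Arntl on the same side of its dose group mean in all of them, 6 above and 5 below, and 7 changed side. The same count was 10 for Npas2, whose probe lay near background, 6 for Nfil3 and 5 each for Clock and Cry1.

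The other relations past the limit were Nfil3 between lung and liver (r = 0.623, rho = 0.604, adjusted permutation p 0.0401) and Npas2 between liver and forestomach (r = 0.594, rho = 0.544, adjusted permutation p 0.0447). Npas2 was well above background on 0 of 19 liver and 5 of 19 forestomach arrays, so this r rests on liver signal near background. An r at least that of the weakest member past the limit was found for 3.59% of probes between lung and liver, 0.674% between lung and forestomach and 2.1% between liver and forestomach. Clock had 0.519 between lung and liver (adjusted permutation p 0.255), and without mice 17 and 19 it had 0.753. Without the 2 mice farthest from the median, Arntl had 0.634, 0.681 and 0.766, Nfil3 0.510 and Npas2 0.531, and 2 relations passed, Arntl between lung and liver having an adjusted permutation p of 0.0565. When the slide was removed along with dose, no relation passed: Arntl had 0.552, 0.475 and 0.558, Nfil3 0.248 and Npas2 -0.125, with a smallest adjusted permutation p of 0.184. Without mouse 9 none of the 15 passed either, Arntl having 0.721, 0.695 and 0.775 at an adjusted permutation p of 0.0596 each, and Arntl between lung and forestomach also missed the limit without mouse 4 (r = 0.696, adjusted permutation p 0.0506). Nfil3 missed the limit without any 1 of 11 mice and Npas2 without any 1 of 14.

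**Figure D4:**
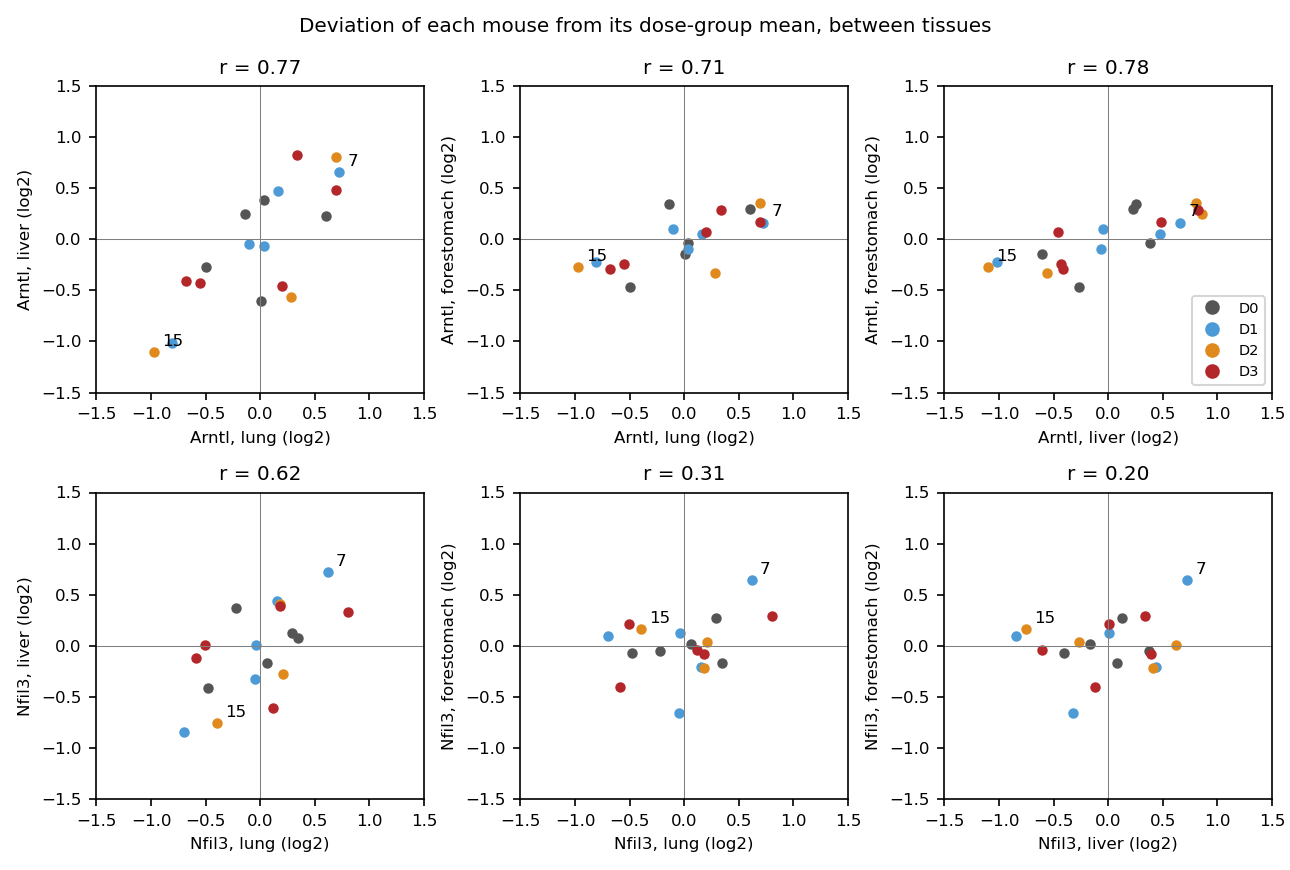
Deviation of each mouse from its dose group mean, in log2 units, for Arntl (upper row) and Nfil3 (lower row) in each pair of tissues, colored by dose group, with mice 7 and 15 labelled. Arntl rises in all pairs (r = 0.77, 0.71 and 0.78), and Nfil3 in that of lung and liver (r = 0.62) more than in those with forestomach (r = 0.31 and 0.20).

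Genes most like each member were ranked by the mean over the 3 tissues of r with its deviations, among 11757 other named genes that passed the signal filter in all 3 (18, 19 and 19 arrays), as a description without a test. Npas2 and Cry1 did not pass in all 3 and were not ranked themselves. For Arntl the lowest 3 ranks belonged to listed clock genes: Dbp (mean r -0.87), Nr1d2 (-0.82) and the D-box activator Tef (-0.81), while the highest were Dapk1 (0.70), Fam210b (0.70) and Frat1 (0.69). The next 5 for Arntl were Pcsk4 (-0.79), Per3 (-0.78), Bhlhe40 (-0.76), Rev1 (-0.75) and Per1 (-0.74), of which Pcsk4 and Rev1 are not on the clock list, and these 5 were chosen after their values were seen. For Nfil3 the lowest were Dbp (-0.67), Nr1d1 (-0.60) and Nr1d2 (-0.59), and the highest 0610009B22Rik (0.59), Nkg7 (0.58) and Noa1 (0.57). Placed in the other members' rankings, Arntl would take rank 1 for Nfil3 and rank 3 for Npas2, and Nfil3 rank 13 for Arntl. Clock would take rank 219 for Arntl and Arntl rank 170 for Clock.

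Members were not ranked against each other, and the extremes for Clock, Npas2 and Cry1 held none of the other clock genes listed. Clock was most like Cltb (mean r 0.68), Rce1 (0.68) and Paip2b (0.64) and most opposite to Flcn (-0.63), Socs7 (-0.62) and Hook2 (-0.61). Npas2 was most like Kcnj8 (0.64), Frat1 (0.63) and Erbb3 (0.61) and most opposite to Psmg2 (-0.71), Cdc45 (-0.71) and Arhgap33 (-0.70). Cry1 was most like Eri3 (0.58), Fcgr1 (0.56) and Cybb (0.54) and most opposite to Atp9a (-0.59), Srebf1 (-0.55) and Rnf43 (-0.55). Cry1 was well above background on 0 of 18 lung and 0 of 19 forestomach arrays and Npas2 on 0 of 19 liver arrays, so that their mean r includes tissues in which the probe lay near background.

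The other clock genes were counted from a list of 26 by role, all named on the array, of which 24, 23 and 22 were tested in lung, liver and forestomach. None was called at any dose. At D2, 8, 6 and 4 of them had an unadjusted limma p of at most 0.05 with a higher value, beside 2.8%, 2.01% and 3.26% of all probes, and 0 with a lower one. At D3 the counts were 3, 3 and 6, beside 6.05%, 2.46% and 5.45%. The 3 D-box activators, Dbp, Tef and Hlf, made up 3, 2 and 2 of the D2 counts. Dbp changed by 2.11 in lung (SE 0.65, adjusted p 0.612), 2.24 in liver (SE 0.74, adjusted p 0.998) and 1.03 in forestomach (SE 0.41, adjusted p 0.568) at D2, and by 1.24, 1.59 and 0.86 at D3. Without mouse 15 the D2 changes were 1.61, 1.83 and 0.57. Nr1d1, the nuclear receptor that represses at ROR elements, changed by 0.84, 0.65 and 0.31 at D2 (0.72, 0.58 and 0.19 without mouse 15) and by 0.64, 0.31 and 0.47 at D3. Per3, a Period family member, changed by 0.52, 0.48 and 0.06 at D2 (0.26, 0.37 and -0.00089 without mouse 15) and by 0.08, 0.36 and 0.05 at D3. The median D3 change over the list was 0.04, 0.12 and 0.28, against a median of the members tested of -0.28, -0.27 and -0.0019. The list and the members were read from the same arrays and controls.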

How the data were processed

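RNA from 56 tissue samples of 19 mice was hybridized in Cy5 with reference RNA in Cy3 on 2-color mouse arrays, with 59305 spots a sample beside 3671 control spots, which were left out. Spot intensities and 0 or 1 flags were deposited from Feature Extraction 10.7.3.1, per the file headers. The log2 ratios used here are the authors' values, LOWESS normalized without background subtraction per the study's methods, and spots of a probe were averaged to 55681 probes, of which 26413 (47.4%) were named through RefSeq accessions. The array number limits the precision, and no per-sample column was unused.

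Probes entered a tissue's fit when Cy5 was well above background on at least 3 arrays. Doses were compared with D0, and tissues in a joint fit, with limma 3.58.1 in R 4.3.3 with data.table (version 1.17.8) and Benjamini-Hochberg adjustment. The study's own permuted Fs test used residual shuffles, of which 100 were drawn here as an alternative. Relations between mice used 100000 permutations within dose groups. Alternatives were loess of the scanner signals, median centring, normexp (offset 50) with loess, other signal filters, the mean of a gene's probes, array weights, 1 variance per tissue, array column (equal to the dose step plus 1 on 50 of 56 arrays, so that column and dose are nearly confounded), slide, dose in mg/kg-bw/day, mouse as a block and each mouse left out. Leaving out mice 17 and 19 was extended to the relations after seeing the data. The same mouse number marks the same animal in all tissues, which pairs its arrays. Code was tested on simulated data with 200 changed probes (seed 1). Promoters and figures used Python 3.11.15 with matplotlib 3.10.9.

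The members and gene lists were chosen with earlier results of these data known. Named genes beyond them were the 3 most alike and 3 most opposite to each member, Dbp, and examples of the clock list. The lists were other clock genes by role and markers of hepatocytes, alveolar type 2 cells, keratinocytes, skeletal muscle, glandular stomach, adipocytes and B cells.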

Additional observations from a re-analysis of the deposited data

Results flagged for a closer look

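None of the 55 member groups of 4 or 5 mice had a value far enough from the others to be singled out by Dixon's test, and the test of each member's change at D3 between tissues called none (smallest adjusted p 0.532 in limma).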

How the results depend on the processing

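No member was called for dose, trend or the D3 effect between tissues under any alternative tried, nor was any other clock gene. Of the levels between tissues, lung minus liver fell from 2 to 1 call with own loess, median centring and normexp. Under median centring that call was Clock (adjusted p 0.0111 in limma), which was not called in the main fit. The calls of Nfil3 and Arntl were lost there (adjusted p 0.0524 and 0.496). Lung minus forestomach fell from 2 to 1 with own loess, normexp, array weights and 1 variance per tissue, and liver minus forestomach from 3 to 1 with median centring. In lung minus forestomach, median centring called Clock, Nfil3 and Arntl, all as higher in lung (adjusted p 0.046, 0.0156 and 0.0174 in limma). The main fit had called Clock and Nfil3 as lower there. Leaving out each mouse gave 1 to 2, 1 to 2 and 2 to 3 calls. With mouse as a replicate block the consensus correlation was 0.0258 and no call changed (Nfil3 lung minus liver adjusted p 5.93e-12, Arntl 0.0117, limma). That 1 value, near 0, served every probe, so the fit stayed close to the unpaired one. It cannot show what pairing does for a single member, and Arntl itself had r of 0.712 to 0.779 between tissues. Relations between tissues past the limit fell from 5 to 0 with median centring and with the slide removed, to 2 without the 2 farthest mice, and ran from 0 to 5 as mice were left out. Those within tissues, 14 with 2 in forestomach, ran from 11 to 15 as mice were left out. Median centring gave 16, of which 11 were among the 14 and 7 in forestomach, and the slide removed gave 12, of which 9 were among the 14. Among relations, the sign of r turned in 4 of 15 between tissues and 8 of 45 within tissues with the slide removed, in 2 and 7 without the 2 farthest mice, in 0 and 2 with own loess and in 1 and 2 without mice 17 and 19. Of these, 1 had been past the limit, Npas2 between liver and forestomach with the slide removed (-0.125). Other signs turned as follows, and the cause was not tested. Own loess gave 0.20 for Clock in lung minus liver. Median centring shifted the median of all probes by 0.12 and 0.19 at D3 in lung and forestomach and by 0.64, 0.98 and 0.18 in lung minus liver, lung minus forestomach and liver minus forestomach. It gave, for D3, 0.022 for Clock in lung and, in forestomach, 0.19 for Nfil3 and 0.055 for Arntl. For lung minus liver it gave 1.32 for Clock, 0.11 for Cry1, -0.038 for Npas2 and 0.46 for Arntl. For lung minus forestomach it gave 0.99 for Clock, -0.11 for Npas2, 1.63 for Nfil3 and 1.53 for Arntl, and for liver minus forestomach -0.034 for Cry1. It turned the sign of r in 13 of the 45 relations within tissues, 9 in forestomach, and in 3 of the 15 between tissues. Of those past the limit in the main analysis 1 turned, Arntl and Dbp in forestomach (0.909). Clock and Nfil3 with Dbp there turned to 0.915 and 0.880, both past the limit. Normexp gave 0.0048 for Clock at D3 in liver and 0.23 in lung minus liver. Array weights gave 0.052 for Npas2 in liver minus forestomach. Array column as a covariate, nearly confounded with dose, gave 0.066 for Clock and 0.059 for Cry1 at D3 in liver. Without single mice, D3 in forestomach ran from -0.0074 to 0.29 for Clock and -0.0055 to 0.26 for Npas2, Arntl in lung minus forestomach from -0.12 to 0.082, and Npas2 in liver minus forestomach from -0.10 to 0.083. Signal over background limits Npas2 and Cry1.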
